A study of Mus musculus with 6 samples.

Results

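The genes examined here encode heat shock proteins, J-domain chaperones, the BAG cochaperones that release their clients, and the heat shock transcription factors. They were taken by symbol from the table of the bulk RNA-seq comparison: names of the *Hspa*, *Hspb*, *Hspd*, *Hspe*, *Hsph*, *Hsp90*, *Dnaja*, *Dnajb*, *Dnajc*, *Hsf* and *Bag* series, each with its number. This gave 81 of the 19270 genes in the table, and 60 of the 81 had a mean over both groups of at least 10 normalized reads. RNA came, by the methods, from mesenchyme dissected at the proximal end of the incisor of mice aged 1 month, 4 days after tamoxifen induction, in 3 mutant and 3 control libraries. The mutants carried *Gli1-CreER* with *Arid1b* fl/fl, and tamoxifen activates this Cre in *Gli1*-expressing cells, which lie in both the mesenchymal and the epithelial lineage of this tooth. The controls also received tamoxifen; the labels give them as wild type, the methods as *Arid1b* fl/fl, so whether they carried the floxed alleles cannot be told from these sources. Strain and sex of the mice were not given in the sources used here. The study asked which genes change when *Arid1b*, a subunit of the BAF chromatin remodeling complex, is lost.

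HSP70 chaperones bind short hydrophobic stretches of unfolded proteins and release them in a cycle driven by ATP. J-domain proteins (DNAJ, or HSP40) deliver clients and trigger ATP hydrolysis, and BAG and HSP110 proteins exchange the nucleotide. Cells keep constitutive copies such as *Hspa8* at a high level at all times, whereas heat, toxic metals or misfolded proteins release the factor HSF1, which binds heat shock elements and switches on inducible copies such as *Hspa1a*. Odontoblasts and pre-odontoblasts secrete collagen in bulk, and the chaperones of the endoplasmic reticulum fold such cargo.

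The deposited values are the authors' mean for each group, in normalized reads that are not scaled to gene length. Values per gene and mouse were not analysed here, so no value below carries an error and no test across mice could be run. A gene is described by its ratio of mutant mean to control mean, and the share of all genes past the same fold is the only yardstick given. The libraries had an estimated 37123643 to 49594469 reads each. The mean of *Arid1b* (chromosome 17, 4994332 to 5347656 on mm10) was 38.0 in mutants against 97.6 in controls. All 11 dental epithelium markers were more than 1.5-fold higher in the mutants, beside 7.37% of all genes. Their sum rose from 1647 normalized reads in the controls to 10406 in the mutants. None was at 0, although the dissection was meant to take mesenchyme. Of the 10 dental mesenchyme markers 9 were lower, beside 5127 of the 10311 genes with a mean over both groups of at least 10. Their median log2 ratio was -0.29, and their sum was 33140 in the controls and 26793 in the mutants. *Xist* averaged 813.8 in mutants against 3368 in controls, and the Y-linked *Ddx3y* had 65.3 in the mutants and the lowest value of the table in the controls, so sex and genotype cannot be told apart for genes that differ between the sexes. In bulk tissue, fewer cells of a type and less RNA per cell cannot be told apart.

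The sequences upstream of the genes on which the comparison turns are shown first, from RefSeq on GRCm38.p6. The heat shock element was searched as GAANNTTC or TTCNNGAA, each of which reads the same on both strands, from 250 bases before to 50 bases after each gene start. Of the members, 61 matched entries by symbol, with 79 windows among them since a gene can have several. The element was found in 18 of these 79 windows (22.8%), which belong to 16 members, and in 15.1% of all 32851 windows. Windows can overlap, so the same bases can be counted more than once. In the following lines it stands in capitals. *Hspa1a* (chr17:34972157-34972406, minus strand) and *Hspa1b* (chr17:34959239-34959488, minus strand) are the inducible pair, and they differed at 3 of these 250 positions; *Hspe1* (chr1:55088053-55088082, plus strand) is shown for its run of overlapping units, and *Hspb8* (chr5:116422855-116422964, minus strand) because it had the largest ratio, with its only pair at bases 3 to 10 from the gene start.
Hspa1a: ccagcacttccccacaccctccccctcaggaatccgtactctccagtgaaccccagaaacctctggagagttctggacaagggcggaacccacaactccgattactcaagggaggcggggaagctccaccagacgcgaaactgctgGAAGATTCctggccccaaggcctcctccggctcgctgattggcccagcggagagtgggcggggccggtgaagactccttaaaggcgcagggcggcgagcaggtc
Hspa1b: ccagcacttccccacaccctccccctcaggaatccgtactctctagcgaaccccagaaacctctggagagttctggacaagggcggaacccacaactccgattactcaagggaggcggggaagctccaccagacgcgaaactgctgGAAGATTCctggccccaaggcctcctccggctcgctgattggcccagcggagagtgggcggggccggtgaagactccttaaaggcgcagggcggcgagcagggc
Hspe1: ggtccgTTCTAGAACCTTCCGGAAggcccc
Hspb8: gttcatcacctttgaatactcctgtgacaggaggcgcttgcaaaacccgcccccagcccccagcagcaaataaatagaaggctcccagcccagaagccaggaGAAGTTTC

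Runs of 3 alternating units, GAANNTTCNNGAA or TTCNNGAANNTTC, were found in 6 of the 79 windows (7.59%), of *Dnajb6*, *Hspd1*, *Hspe1* and *Hsph1*, beside 0.603% of all windows. These windows do not hold separate sites. The run of *Hspd1* and that of *Hspe1* are the same bases, read from opposite strands. The windows of *Dnajb6* overlap and share their run, as do those of *Hsph1*, so the share of windows counts the same bases more than once. *Dnajb1* and *Hsp90aa1* were not among the 16 members with a pair of units. Only 61 of the 81 members had a window, so absence from the 16 can also mean that no window was searched. For the endoplasmic reticulum, the stress response element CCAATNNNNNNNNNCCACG was searched on both strands, and was found in 3 of the 79 windows (3.8%), of *Hspa5*, *Dnajc3* and *Hsp90b1*, beside 0.119% of all windows. In the next lines the capitals mark that element, in *Hsp90b1* (chr10:86705530-86705694, minus strand), where it occurs in both orientations, in *Hspa5* (chr2:34772020-34772049, plus strand) and in *Dnajc3* (chr14:118937782-118937881, plus strand). These matches are descriptions of letters, and binding of a factor was not measured.
Hsp90b1: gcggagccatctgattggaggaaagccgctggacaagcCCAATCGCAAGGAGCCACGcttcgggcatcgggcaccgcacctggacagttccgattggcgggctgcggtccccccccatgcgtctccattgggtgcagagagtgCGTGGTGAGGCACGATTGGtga
Hspa5: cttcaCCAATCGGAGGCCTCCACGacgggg
Dnajc3: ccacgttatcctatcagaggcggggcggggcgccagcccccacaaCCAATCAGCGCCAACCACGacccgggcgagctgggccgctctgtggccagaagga

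As a group, the chaperone genes lay close to a ratio of 1. Over all 81 the median log2 ratio was 0.00, with 40 higher and 41 lower in the mutants, and the median over all genes of the table was 0.00 too. Only *Hspb8* and *Hsf5* were more than 1.5-fold higher, 2 of 81 (2.47%) beside 7.37% of all genes, and only *Hspb7* was more than 1.5-fold lower, 1 of 81 (1.23%) beside 5.80% of all genes. Many of the genes in the table have few reads, which widens their ratios. Among genes averaging 10 or more, *Hspb8* was the single member of 60 more than 1.5-fold higher (1.67%, beside 2.15% of 10311 genes), and 0 of 60 were more than 1.5-fold lower (beside 0.912%). *Hspb8* averaged 7.74 in controls and 18.2 in mutants, so it passed this limit only through the group where it was high. Members of the 60 more than 25% higher were *Hspb8*, *Hspa1b* and *Dnajb9*, 3 of 60 (5.0%, beside 5.11%), and *Hsp90b1* was more than 20% lower, 1 of 60 (1.67%, beside 4.33%). Without the limit on the mean, 6 of 81 were more than 25% higher (7.41%, beside 13.6%) and 4 of 81 more than 20% lower (4.94%, beside 12.8%), and those added were *Bag2*, *Hsf3*, *Hsf5*, *Hspb7* and the pseudogenes *Dnajc19-ps* and *Hspa9-ps1*. Of the 60 members, 78.3% differed by less than 1.1-fold, as did 69.0% of all genes with such a mean; the median mean was 46.7 for the members and 41.3 for those genes.

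**Figure D1:**
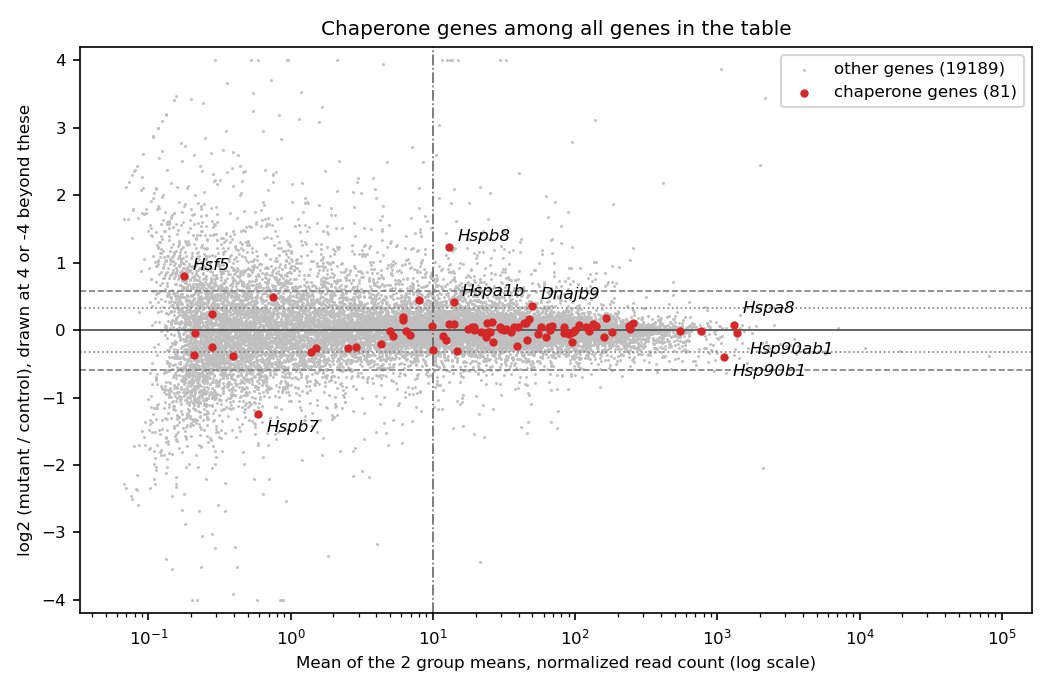
Mean over both groups (x axis, normalized reads, log scale) against the log2 ratio of mutant mean to control mean (y axis) for the 81 chaperone genes (red) and the other genes (gray). The dashed and dotted lines mark differences of 1.5-fold and of 25% up or 20% down, and the vertical line a mean of 10; to its right Hspb8, at a log2 ratio of 1.24, is the single red point beyond the dashed lines.

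The stress-inducible genes *Hspa1a*, *Hspa1b*, *Dnajb1* and *Hsph1* were examined first. *Hspa1a* (chromosome 17, 34969190 to 34972156), a cytosolic HSP70 that is switched on by heat, had means of 10.1 in mutants against 9.69 in controls. Its neighbour *Hspa1b* (chromosome 17, 34956436 to 34959238), which encodes nearly the same protein, had means of 15.98 and 11.996, a ratio of 1.33. *Dnajb1*, the inducible J-domain partner of these HSP70s, had means of 34.96 and 35.57. *Hsph1*, the inducible HSP110 that reloads them with ATP, had means of 70.7 and 67.9. Of the 4 genes, *Hspa1b* alone differed by more than 1.1-fold, and the median log2 ratio was 0.06.

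The difference between *Hspa1a* and *Hspa1b* is uncertain, because 58.8% of the 50-base stretches of *Hspa1a* transcripts occur unchanged in *Hspa1b*, and 62.3% the other way round, and how such reads were counted is not given in the sources used here. Summed, the pair had means of 26.1 in mutants against 21.7 in controls, a ratio of 1.20 and a log2 ratio of 0.27. Immediate early genes, which respond within minutes to growth signals and to tissue handling, stood beside them. Of 13, 11 were higher in mutants, beside 9731 of all 19270 genes, and the median log2 ratio was 0.38. More than 1.5-fold higher were 5 (beside 7.37% of all genes), and *Fosb* was more than 1.5-fold lower (beside 5.8%). Only 7 of the 13 had a mean over both groups of at least 10, and *Fos*, *Atf3*, *Nr4a1* and *Fosb* lay below it. *Jun* had means of 29.3 and 18.3, *Egr1* 14.7 and 7.96 and *Ier2* 12.9 and 12.3. Their part in the value of *Hspa1b* was not tested.

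Of the other heat-inducible members, 5 of 6 were higher in the mutants, and 4 of 6 differed by less than 1.1-fold. Of the 10311 genes averaging 10 or more, 5184 were higher, and 69.0% differed by less than 1.1-fold. *Hsp90aa1*, the inducible HSP90, had means of 541.0 in mutants against 546.4 in controls. *Hspb1*, a small heat shock protein that holds unfolded clients and protects actin, had means of 24.9 and 23.2. *Bag3*, which links HSP70 and small heat shock proteins to autophagy, had means of 58.4 and 56.5, and *Dnajb4*, a relative of *Dnajb1*, had 30.2 and 29.3. For each of these genes, the mutant mean lay within 1.1-fold of the control mean. *Dnaja1*, a farnesylated J-domain protein that serves HSC70, was slightly higher, with means of 176.1 and 154.7 and a log2 ratio of 0.19, and *Hspb8* is described further on.

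The constitutive chaperones were fixed as *Hspa8*, *Hspa4*, *Hsp90ab1*, *Dnaja2*, *Dnajc7*, *Hspa9*, *Hspa5* and *Hsp90b1*. Constitutive here means not listed as heat-inducible, since *Hspa5* and *Hsp90b1* carry the endoplasmic reticulum stress element printed above. *Hspa8*, the cytosolic HSC70 that uncoats clathrin vesicles and folds new proteins, had means of 1342 in mutants against 1278 in controls. *Hsp90ab1*, the constitutive HSP90 that matures kinases and steroid receptors, had means of 1349 and 1394. *Hspa4*, an HSP110 type exchange factor, had means of 242.8 and 241.0. Each of these differed by less than 1.1-fold. *Dnaja2* and *Dnajc7*, J-domain partners of HSC70 and of HSP90, had log2 ratios of 0.06 and 0.07. The median log2 ratio of the 8 genes was 0.04, against 0.06 for the stress-inducible genes, a difference of 0.02. Without *Hspa5* and *Hsp90b1*, the middle log2 ratios of the constitutive genes were 0.061 (*Dnaja2*) and 0.071 (*Hspa8*). Both lay above the median of 0.059 of the stress-inducible genes, so the sign of this small difference depends on that choice. With means over the lists in place of medians, the difference was 0.14, in which *Hspa1b* and *Hsp90b1* stood at opposite ends.

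**Figure D2:**
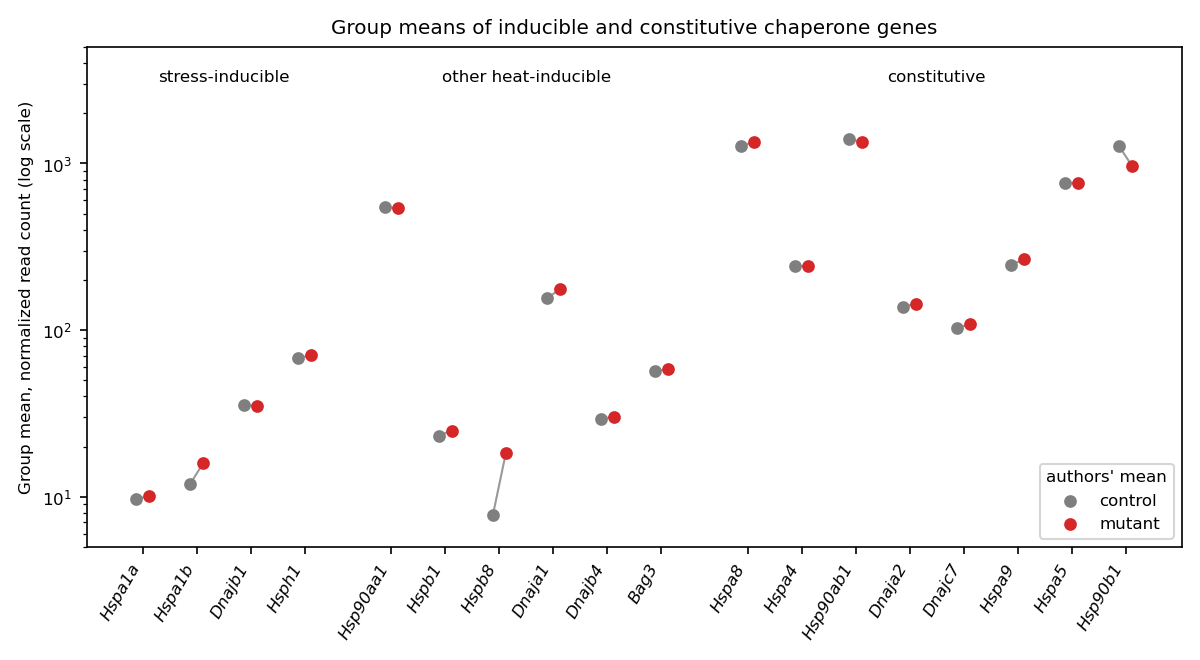
Authors' group means (y axis, normalized reads, log scale) of the stress-inducible, other heat-inducible and constitutive chaperone genes in controls (gray) and mutants (red); no error is drawn since values per mouse were not analysed. The lines joining the groups are nearly level except for Hspb8 (7.74 to 18.2), Hspa1b (11.996 to 15.98) and Hsp90b1 (1267 to 961.3).

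Levels were also compared between genes after division by exon length, from the union of exons in GENCODE vM21. On this scale of normalized reads per kb, averaged over both groups, the highest members were *Hsp90ab1* at 457.3, *Hspa8* at 304.6, *Hsp90b1* at 276.4, *Hspa5* at 180.8 and *Hsp90aa1* at 138.3. The stress-inducible genes lay far below them, with *Dnajb1* at 11.0, *Hsph1* at 9.54, *Hspa1b* at 4.99 and *Hspa1a* at 3.33 normalized reads per kb. *Hspa1a* ranked 60 among the members by this level and *Hspa8* ranked 2. The order of neighbours cannot be tested without values per mouse. For *Hspa1a* and *Hspa1b*, 60.3% and 62.3% of the 50-base stretches recur in transcripts of other genes, mainly each other, so their low levels depend on how shared reads were counted. For *Hsp90aa1*, *Hspa8* and *Hspd1* the shares that recur elsewhere were 47.5%, 38.6% and 39.7%.

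*Hspb8* (chromosome 5, 116408491 to 116422864) encodes a small heat shock protein that binds BAG3 and hands misfolded clients, with HSC70 and the ubiquitin ligase STUB1, to autophagy. Its mean was 18.2 in mutants against 7.74 in controls, a ratio of 2.35 and a log2 ratio of 1.24. Of the 10311 genes averaging 10 or more, 42 had a higher log2 ratio, and *Hspb8* is among these genes only through its mutant mean. If the lowest value of each library is read as no reads, these means correspond to about 789 reads per mutant library and 298 per control library, and none of its 50-base stretches recurs in another gene. Its partners lay close to a ratio of 1, with log2 ratios of 0.05 for *Bag3*, 0.07 for *Hspa8* and -0.05 for *Stub1*. Whether the higher epithelial transcripts in the mutant libraries contribute to the mean of *Hspb8* was not tested.

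The other small heat shock proteins had lower ratios than *Hspb8*. *Hspb1* had a log2 ratio of 0.10, and *Hspb11*, a subunit of the intraflagellar transport complex despite its name, had means of 9.07 in mutants against 11.1 in controls, a log2 ratio of -0.29. *Hspb6*, best known from muscle, had means of 3.984 and 4.605. *Hspb7*, which is expressed in heart and skeletal muscle, had means of only 0.351 in mutants against 0.827 in controls, which would be about 14.2 and 31.0 reads per library. Skeletal muscle markers stood beside it, with 8 of 10 lower in the mutants, beside 9539 of all 19270 genes. These markers had a median log2 ratio of -0.61 and sums of 7.41 and 8.95 normalized reads, all 10 with a mean under 10 and none at 0. Their part in the value of *Hspb7* was not tested. *Hspb2* had means of 0.211 and 0.217.

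**Figure D3:**
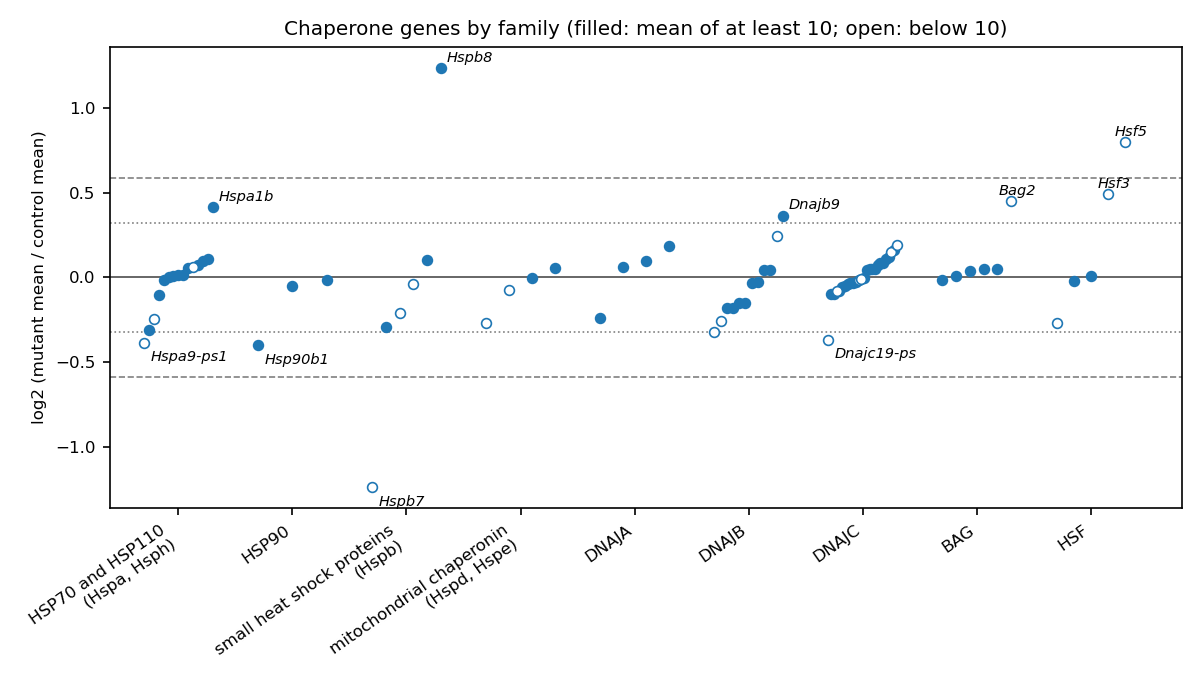
Log2 ratio of mutant mean to control mean (y axis) for each of the 81 chaperone genes by family, filled where the mean over both groups was at least 10 and open below. Lines as in the plot of all genes. Over filled and open points the family medians run from -0.12 (small heat shock proteins) to 0.08 (DNAJA). The filled points of the small heat shock proteins alone have a median of 0.10. The named genes are those beyond the dotted lines.

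The listed chaperones of the endoplasmic reticulum were lower more often than higher, 6 of 8, with a median log2 ratio of -0.06. Of the 10311 genes averaging 10 or more, 5127 were lower. *Hsp90b1* (chromosome 10, 86690209 to 86705509), which encodes GRP94, the HSP90 of this compartment that folds integrins and other secreted and surface proteins, had means of 961.3 in mutants against 1267 in controls, a log2 ratio of -0.40. Among the 10311 genes averaging 10 or more, 270 had a lower log2 ratio. *Hspa5*, which encodes BiP, the HSP70 of the same compartment, had means of 761.3 and 767.9. *Hsp90b1* and *Hspa5* are often induced together, and both carry the element printed above, and here their log2 ratios were -0.40 and -0.01.

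The J-domain partners of BiP spread around these values. *Dnajb11*, which brings unfolded chains to BiP, had means of 88.7 in mutants against 100.6 in controls. *Dnajc3*, which carries the same element, had 178.5 and 182.3, *Dnajc10*, a disulfide reductase, 153.6 and 164.1, and the membrane protein *Dnajc1* 60.01 and 64.32. *Dnajb9*, which feeds misfolded proteins into degradation and represses the stress sensor IRE1, went the other way, with means of 56.0 and 43.5 and a log2 ratio of 0.36. *Hspa13* had 100.6 and 100.4. Beside *Hsp90b1*, *Serpinh1*, the collagen chaperone HSP47, had means of 1222 and 1626, and the collagen and dentin genes *Col1a1* and *Dspp* had log2 ratios of -0.31 and -0.32. The part of the lower mesenchymal transcripts in the value of *Hsp90b1* was not tested.

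The mitochondrial chaperones on the list of 7, which does not hold every mitochondrial member, all lay within 1.1-fold. So did 69.0% of the 10311 genes averaging 10 or more. *Hspd1* and *Hspe1*, the chaperonin barrel and its lid, are transcribed from a shared upstream region, and had means of 245.5 in mutants against 235.8 in controls, and of 66.5 against 66.6. *Hspa9*, the mitochondrial HSP70 that pulls in imported chains, had 265.5 and 246.7, and its J-domain partner *Dnaja3* 47.0 and 43.9. *Dnajc19* and *Dnajc15*, of the import motor, had log2 ratios of 0.05 each, as had *Dnajc11*, which works in the organization of cristae. Thus 6 of the 7 listed were higher, by at most 0.11 on the log2 scale, beside 5184 of the 10311 genes averaging 10 or more.

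The remaining J-domain genes had ratios near 1 in most cases. Of the 20 DNAJC genes with a mean of at least 10, 19 differed by less than 1.1-fold, 10 were higher and 10 lower. The highest was *Dnajc9*, a histone chaperone partner tied to DNA replication, with means of 49.9 in mutants against 44.7 in controls and a log2 ratio of 0.16, and the lowest was *Dnajc1* at -0.10. *Dnajc5*, the cysteine string protein of secretory vesicles, had means of 136.9 and 128.8, and *Dnajc6*, auxilin, which works with HSC70 on clathrin coats, had 11.37 and 12.02. In the DNAJB family 6 of 9 with such a mean were lower, and only 4 of 9 lay within 1.1-fold. Next to *Dnajb11*, these were led by *Dnajb2* with means of 24.8 and 28.1, *Dnajb12*, an anchored J-domain protein of the endoplasmic reticulum membrane, with 43.65 and 48.51, and *Dnajb5* with 11.8 and 13.1. *Dnajb6*, a suppressor of polyglutamine aggregation, had 84.3 and 81.8. In the DNAJA family *Dnaja4* was the lowest member, with means of 35.7 and 42.1 and a log2 ratio of -0.24, and *Dnaja1* the highest.

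Among the remaining HSP70 genes, *Hspa12a*, a distant relative, was the lowest with a mean of at least 10, at 13.2 in mutants against 16.4 in controls (log2 ratio -0.31). *Hspa12b*, which is known from endothelium, had means of 22.8 and 24.5 beside 6 endothelial markers with a median log2 ratio of 0.06. *Hspa2*, known from the testis, had 17.9 and 17.6, *Hspa4l* 13.4 and 12.6, and *Hspa14* 30.4 and 30.1.

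The main regulators of the system had nearly equal means in both groups. *Hsf1*, the factor that starts the heat shock response, had means of 24.1 in mutants against 24.4 in controls, and *Hsf2* had 32.7 and 32.4. *Hsf3*, *Hsf4* and *Hsf5* had means under 2 in both groups, and *Hsf5* at 0.227 and 0.130 would be about 8.83 and 4.04 reads per library, so its ratio of 1.74 rests on few reads. Of the BAG genes, *Bag1*, *Bag4*, *Bag5* and *Bag6* had means of 66.4, 32.0, 37.7 and 124.5 in mutants, against 64.1, 31.8, 36.6 and 125.5 in controls. *Bag2*, which inhibits STUB1, had means of 9.15 and 6.70, a log2 ratio of 0.45, and was the sole BAG gene with a mean under 10.

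Genes that work with these chaperones were taken from lists outside the family. Of 21 cochaperones and HSF1 target genes, 0 were more than 1.5-fold higher (beside 7.37% of all genes) or lower (beside 5.8%). *Serpinh1* was the one more than 20% lower (beside 12.8% of all genes), with none more than 25% higher (beside 13.6%). The median log2 ratio was 0.02. *Stip1*, which bridges HSP70 and HSP90, had means of 84.8 in mutants against 82.1 in controls, and *Chordc1*, a target of HSF1, had 73.1 and 72.9. All 8 subunits of the TRiC chaperonin, which folds actin and tubulin, were higher, by 0.04 (*Cct8*) to 0.13 (*Cct6a*) on the log2 scale, and all 8 lay within 1.1-fold. Of the 10311 genes averaging 10 or more, 5184 were higher, and 69.0% lay within 1.1-fold. Of 12 genes of the unfolded protein response 9 were lower, beside 9539 of all 19270 genes, with a median of -0.13. More than 1.5-fold different were 0, beside 7.37% of all genes higher and 5.8% lower by that fold. The lowest were *Calr*, the lectin chaperone calreticulin, with means of 822.9 and 1117, *Sdf2l1* with 17.4 and 22.7 and *Pdia4* with 256.2 and 313.7. The highest was *Xbp1*, the factor spliced by IRE1 and an activator of *Dnajb9*, with means of 125.6 and 105.6.

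**Figure D4:**
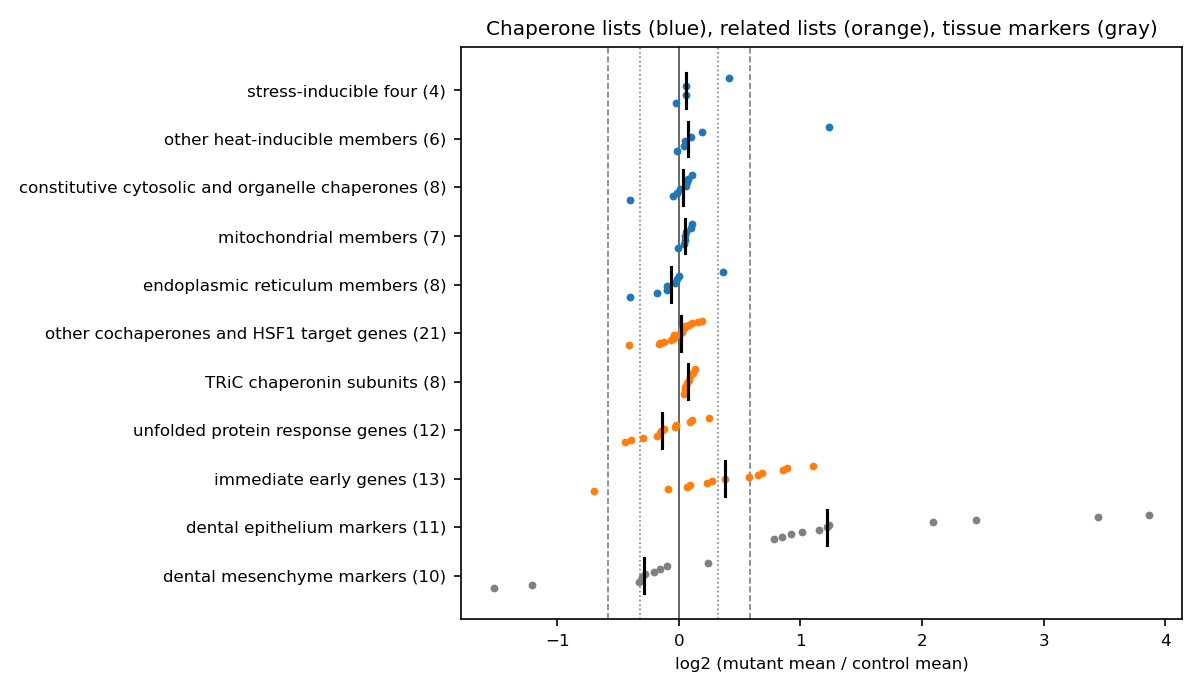
Log2 ratio of mutant mean to control mean (x axis) for each gene (point) of the chaperone lists (blue), related lists (orange) and tissue markers (gray), with the number of genes in parentheses and the median as a black bar. The chaperone lists have medians between -0.06 and 0.07, whereas the dental epithelium markers have a median of 1.22.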

How the data were processed

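RNA was sequenced in 3 control and 3 mutant libraries, and the methods do not say how many mice each held. In Partek Flow the authors trimmed the raw data, mapped it on mm10 and made the group comparison; the submitters' processing notes name TopHat2 2.0.8, and the counting of reads, the annotation and the strand setting are not given in the sources used here. The deposited table gives for each gene the authors' mean per group, a normalized signal, and the library summary shows upper quartiles of 44.57 to 44.58 in all 6 libraries. In either group the smallest gene mean matches the average library minimum, so the signal was inferred to be reads plus 1, times a factor per library, which gave the estimated depth. The table also holds the p-value, FDR, ratio and fold change of the authors' own comparison, and a second table the genes past their thresholds; these were not used, nor were 2 numeric columns of the library summary.

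Ratios of group means were computed without a pseudocount over all 19270 genes, with folds of 1.5 (as in the study's methods) and a lower one (25% higher or 20% lower), and a limit of 10 on the mean over both groups. The computation of the ratio was checked on simulated libraries with changes planted in genes averaging 10 or more. These libraries held counting noise and no spread between mice, so the check says nothing about that spread. Gene models were those of GENCODE vM21 (GRCm38, the assembly of mm10), which held 79 of the 81 members. Genes named were the inducible, constitutive, endoplasmic reticulum and mitochondrial lists, all BAG and HSF genes, members past 1.5-fold, and the extremes of each family; any further gene was picked with its value in view. Members and lists were chosen with earlier results of these data known. Python 3.11.15, numpy 2.4.6, pandas 2.3.3 and matplotlib 3.10.9 were used.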

Additional observations from a re-analysis of the deposited data

How the results depend on the processing

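No paired analysis was possible because the table holds 1 mean per group and no value per gene and mouse. Leaving out a replicate was not possible for the same reason, and all values are descriptions. The spread between mice is unknown, so medians were compared to 2 decimals.

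The 2 members more than 1.5-fold higher became 6 when more than 25% higher was asked, 1 at a fold of 2, 1 under a minimum mean of 10 and 1 with 1 added to both means. The 1 member more than 1.5-fold lower became 4 when more than 20% lower was asked, and 0 with the limit on the mean or with 1 added. *Hsf5* and *Hspb7* have few reads, and these settings leave them out or shrink their ratios. The median over the members, -0.0019, was 0.011 under the minimum mean of 10. With means in place of medians, the stress-inducible genes went from 0.06 to 0.13, the constitutive genes from 0.04 to -0.017 and their difference from 0.02 to 0.14. In the other 26 of 37 alternatives, which include subtracting the lowest mean, summing *Hspa1a* and *Hspa1b* and centring, the counts stayed within 1.5 times and the medians were equal to 2 decimals.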

Other observations

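Several members are processed copies whose reads can be shared with a parent gene. *Hspd1-ps3* had authors' means of 6.68 in mutants against 7.03 in controls, and 60.7% of its 50-base stretches occur in *Hspd1*. *Dnajc19-ps*, with means of 0.184 and 0.237, shares 64.6% of them with *Dnajc19*, and *Hspa9-ps1*, with means of 0.344 and 0.449, shares 6.53% with *Hspa9*. *Hspb1* shares 48.8% with *Hsp25-ps1*. *Dnajb6-ps* had means of 2.64 and 3.15. *Hspd1-ps3*, *Dnajc19-ps*, *Hspa9-ps1* and *Dnajb6-ps* had lower means in the mutants than in the controls, whereas their parents *Hspd1*, *Dnajc19*, *Hspa9* and *Dnajb6* had log2 ratios of 0.06, 0.05, 0.11 and 0.04.

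Other cell types of the tissue were also examined. All 5 red blood cell transcripts were lower in the mutants, beside 9539 of all 19270 genes. They had a median log2 ratio of -1.53 and a summed level of 22.1 in mutants against 63.7 in controls. Only 2 of the 5 had a mean over both groups of at least 10. Macrophage markers had a median of 0.13, with 5 of 6 higher, beside 9731 of all 19270 genes. Smooth muscle and pericyte markers had a median of 0.18, with *Cnn1* at 1.13 and *Pdgfrb* at -0.31.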
